A study of Cucumis melo with 27 samples.

Results

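Melon (Cucumis melo) fruits of the cultivars TTDV and F39 were compared by RNA-seq, and 56 of 25200 genes differed between the cultivars in the same direction at each of 4 harvest stages. Of these, 36 were higher in TTDV and 20 were lower in TTDV. The level of a gene was taken as CPM, its count divided by the library total and scaled to counts-per-million units. The 3 libraries of a group were averaged, and the difference was log2(mean CPM + 0.5) of TTDV minus that of F39. A gene was chosen when this difference was at least 1.5 at all 4 stages, or at most -1.5 at all 4. The choice thus used the levels in all 24 fruit libraries, and the differences between the cultivars are given as a description with no test. A further 3 genes had been set aside from the choice, and none of them met it. Genes are named by the IDs in the files, since none of these was paired with a gene name or function in the sources used here.

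Cultivars of a crop can carry different alleles, and a gene can be transcribed at different levels in them throughout the life of an organ. Melon fruits grow, then ripen, and in ripening they soften and change in sugars, pigments and aroma compounds while many genes change in transcript level. A difference between cultivars can thus hold through all stages of the fruit or appear at some of them only.

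The 4 harvests of TTDV fruit fell 20-25, 30-35, 40 and 45 days (d) after flowering, and F39 fruit was taken at the same stages. Leaves 14 d old were sampled from F39 and not from TTDV. Each of the 9 groups had 3 libraries, and plants were grown in the field in Texas in a single spring season without any treatment that separates the groups. Whether the libraries of one group are from different plants is not in the labels, and p-values therefore measure the spread between libraries, which may be technical. The labels name TTDV and F39 without a pedigree. Tissue was ground whole, and in such samples fewer cells of a type and less RNA per cell cannot be told apart. Total counts ran from 6025615 to 28731038 per library. A gene with no count could still have a level of up to 0.186 to 0.498 CPM in a fruit library and 0.104 to 0.232 CPM in a leaf library, which is what 3 counts would give there. These limits cover counting error only.

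For 12 of the 27 libraries the sample title and the name of the file attached to it carry different library numbers. Files were assigned to groups by the library number. For the TTDV libraries at 30-35 and 40 d, the other assignment gives the same cultivar but the stages 20-25 and 30-35 d. For 6 libraries, TTDV at 20-25 d and F39 at 45 d, the other assignment gives the opposite cultivar. Their side was read at 13 genes chosen only on the 18 fruit libraries whose cultivar does not depend on the assignment, as those where all libraries of one cultivar lay at least 1 log2 unit above all of the other. Of these genes 11 were among the 56. Replicates 2 and 3 of TTDV at 20-25 d lay on the TTDV side of the midpoint at 12 of 13 genes each, and the 3 libraries of F39 at 45 d lay on the F39 side at 12, 13 and 13. Replicate 1 of TTDV at 20-25 d lay on the TTDV side at 4 of 13. Over the 6 libraries, 84.6% of the placements followed the library number. These placements bear on the cultivar only, and the stages given by the library number were not checked.

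That library also stood apart when each fruit library was left out and the genes were chosen again from the other 23. Replicate 1 of TTDV at 20-25 d lay on the side of TTDV at 33 of 62 genes chosen without it, or 53.2%, and at 10 of the 25 that were lower in TTDV. Replicate 2 of F39 at 40 d lay on the side of F39 at 38 of 61 genes, or 62.3%. The other 22 libraries lay on the side of their own cultivar at 71.4% to 94.2% of the genes. Without replicate 1 of TTDV at 20-25 d, the choice gave 37 genes upward and 25 downward, of which 34 and 19 were among the 56. Without replicate 2 of F39 at 40 d it gave 45 upward and 16 downward, of which 33 and 16 were among the 56.

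**Figure D1:**
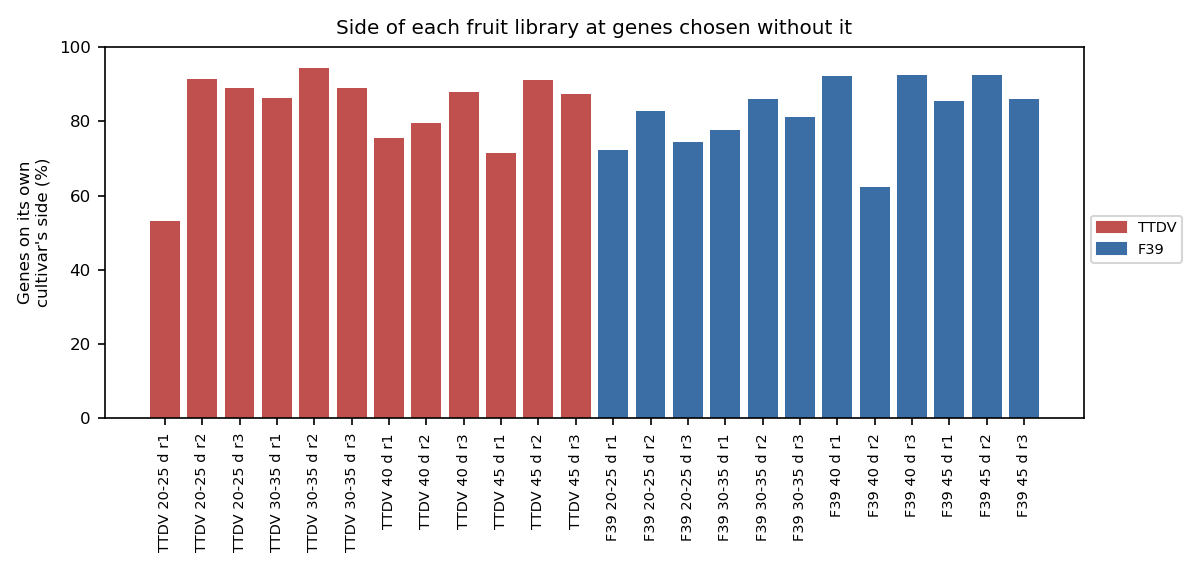
Share of genes, in percent, at which each fruit library lay on the side of its own cultivar, when the genes were chosen without that library (1 bar per library, TTDV left, F39 right). Replicate 1 of TTDV at 20-25 d, at 53.2%, and replicate 2 of F39 at 40 d, at 62.3%, have the lowest bars.

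The 36 genes higher in TTDV were 0.143% of the 25197 genes the choice could take, the 20 lower in TTDV were 0.0794%, and together they were 0.222%. At single stages the same difference was reached by 1.36%, 4.47%, 2.13% and 2.18% of genes upward, in order of stage, and by 2.9%, 4.04%, 2.06% and 1.37% downward. Among the 36, the median difference in order of stage was 2.42, 2.93, 2.53 and 2.91. Among the 20 it was -2.32, -3.02, -3.00 and -3.26. Its size varied with the stage. The difference was largest at 45 d for 14 of the 36 genes and at 30-35 d for 10 of them. For the genes lower in TTDV it was largest at 30-35 d for 7 and at 20-25 d for 3.

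**Figure D2:**
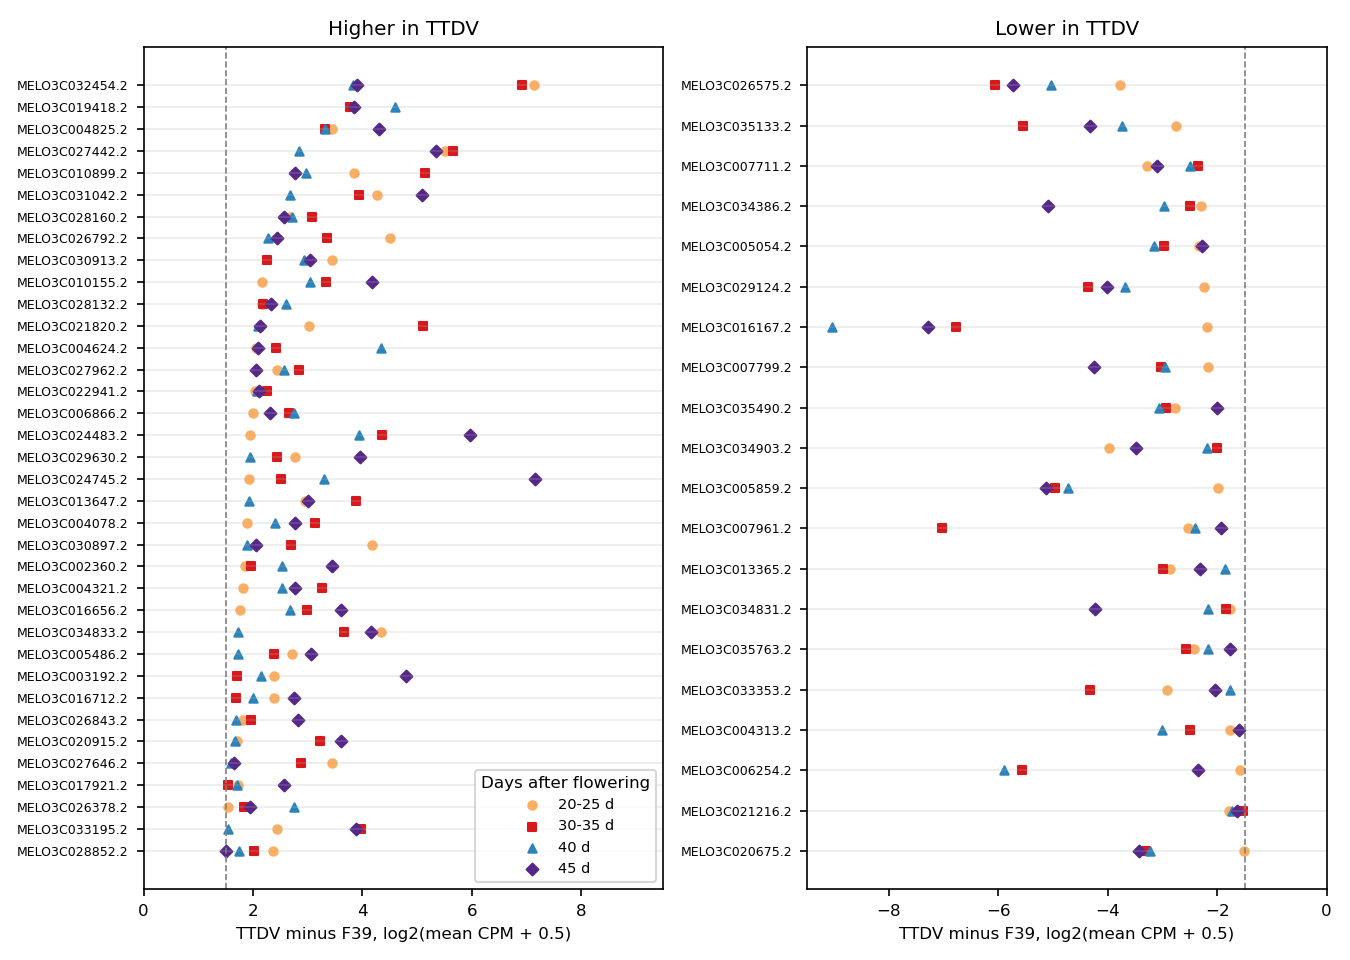
Difference TTDV minus F39 in log2(mean CPM + 0.5) on the horizontal axis for each of the 56 genes (rows), with 1 point per harvest stage and a dashed line at the threshold. In the 36 genes higher in TTDV the largest single difference was 7.15, and in the 20 lower in TTDV it was -9.03.

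Many of these genes were present in one cultivar and close to the counting limit in the other. In 20 of the 36 genes the mean over the 12 F39 fruit libraries was under 1 CPM, and in 14 of them at least 6 of these libraries had no count. In 10 of the 20 genes lower in TTDV the mean over the 12 TTDV libraries was under 1 CPM. The levels in the cultivar where a gene was higher were mostly moderate. They had a median of 10.1 CPM in TTDV for the 36 genes, with a range of 2.75 to 151 CPM, and a median of 18.8 CPM in F39 for the 20 genes, with a range of 2.35 to 1761 CPM. CPM is not corrected for gene length, so these levels are compared between libraries and not between genes.

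Single libraries of the cultivars overlapped for most genes. In 6 of the 36 genes every TTDV fruit library lay above every F39 fruit library, a pattern shown by 0.0357% of all genes, and in 2 of the 20 every TTDV library lay below every F39 library, as in 0.0159% of all genes. The 6 were MELO3C032454.2, MELO3C019418.2, MELO3C028160.2, MELO3C010155.2, MELO3C004321.2 and MELO3C016656.2, and the 2 were MELO3C026575.2 and MELO3C016167.2. Within stages, the 3 libraries of each cultivar were separate at all 4 stages in 17 of the 36 and 8 of the 20. They were separate at 3 stages in 11 and 6, and at fewer in 8 and 6. The share of all genes separate within stages was not computed, so these counts have no background beside them. The choice used the levels in these libraries, so the shares and counts describe the 56 genes only.

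**Figure D3:**
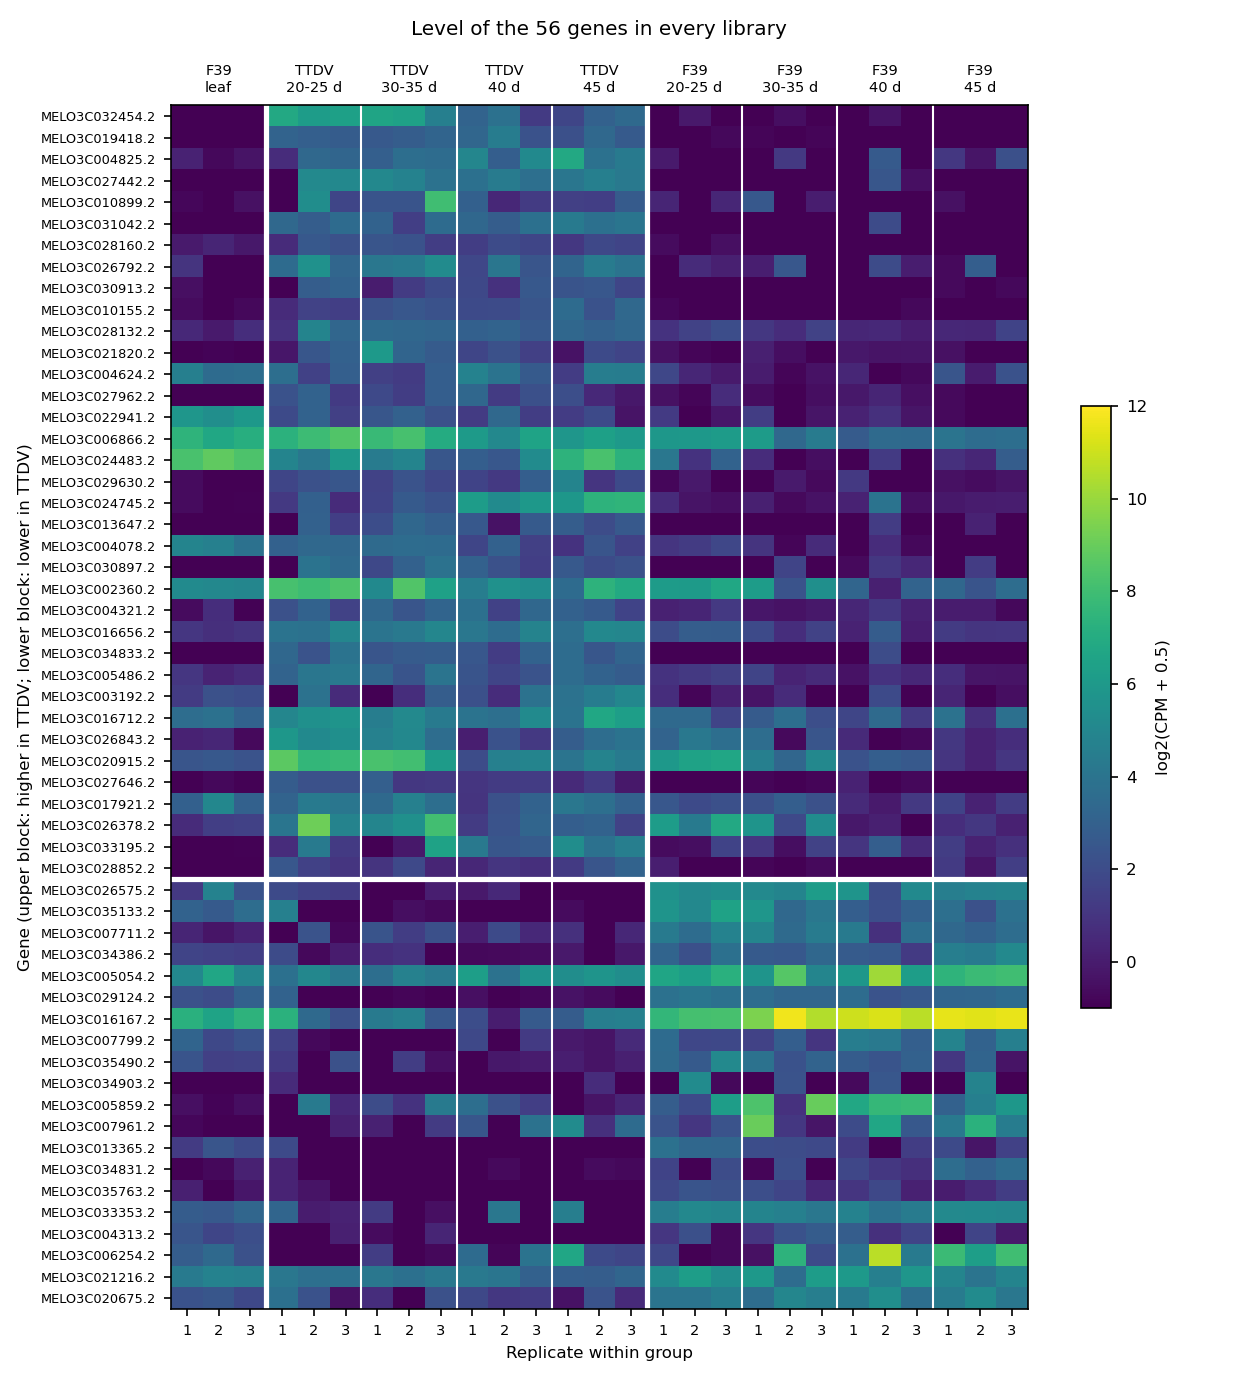
Level of the 56 genes as log2(CPM + 0.5), by colour, in every library (columns: F39 leaf, then TTDV fruit and F39 fruit by stage, 3 replicates each). The 36 genes of the upper block are mostly dark (low) in F39 fruit and the 20 of the lower block mostly dark in TTDV fruit, and replicate 1 of TTDV at 20-25 d held the highest TTDV level in 9 of the 20.

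MELO3C032454.2 had the clearest difference among genes higher in TTDV, if genes are ordered by their smallest difference over the 4 stages. It had 114, 72.4 and 84.4 CPM in TTDV fruit at 20-25 d, 94.3, 85.6 and 23.7 CPM at 30-35 d, 8.32, 14.1 and 1.82 CPM at 40 d, and 2.80, 7.84 and 10.2 CPM at 45 d. In F39 fruit it had 0, 0.438 and 0 CPM at 20-25 d, 0, 0.203 and 0 CPM at 30-35 d, 0, 0.308 and 0 CPM at 40 d, and no count at 45 d. The cultivars did not overlap at any stage, and the TTDV level was high at the first 2 stages and lower at the last 2. The F39 counts all lay in replicate 2. The difference on the log2 scale was 7.13, 6.91, 3.83 and 3.90 in order of stage.

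MELO3C019418.2 had similar mean levels at the 4 stages in TTDV. It had 8.31, 7.25 and 6.35 CPM at 20-25 d, 5.76, 6.60 and 8.47 CPM at 30-35 d, 9.19, 21.3 and 4.39 CPM at 40 d, and 4.06, 10.1 and 5.98 CPM at 45 d in TTDV fruit. In F39 fruit it had 0, 0 and 0.118 CPM at 20-25 d, 0.0619, 0 and 0.0675 CPM at 30-35 d, and no count at 40 or 45 d. Over the 12 F39 libraries it had 3 counts in all, against 1130 in TTDV. The difference lay between 3.78 and 4.60 at the 4 stages.

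MELO3C004825.2 had its highest TTDV levels at the later stages. In TTDV fruit it had 1.07, 9.87 and 8.97 CPM at 20-25 d, 7.05, 12.4 and 11.5 CPM at 30-35 d, 31.1, 6.77 and 35.4 CPM at 40 d, and 113, 14 and 19.1 CPM at 45 d. In F39 fruit it had 0.476, 0 and 0 CPM at 20-25 d, 0, 1.76 and 0 CPM at 30-35 d, 0, 6 and 0 CPM at 40 d, and 1.65, 0.332 and 3.98 CPM at 45 d. Within each stage every TTDV library lay above every F39 library, and the lowest TTDV library was replicate 1 at 20-25 d. The highest F39 library was replicate 2 at 40 d.

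The next 5 genes in that order followed with smallest differences of 2.84 to 2.28. MELO3C027442.2 ranged from 0 to 34.2 CPM in TTDV fruit with a median of 19.8 CPM, against 0 to 5.08 CPM in F39 fruit with no count in 10 of 12 libraries. MELO3C031042.2 ranged from 2.16 to 19.9 CPM in TTDV, against no count in 11 of 12 F39 libraries and 3.38 CPM in the remaining one, replicate 2 at 40 d. Apart from these 2 and 1 libraries with counts, both genes were at the counting limit in F39. MELO3C028160.2 was low in both, at 1.00 to 5.42 CPM in TTDV and at most 0.235 CPM in F39. MELO3C010899.2 had a median of 3.72 CPM in TTDV with 1 library at 259 CPM, against at most 5.57 CPM in F39. MELO3C026792.2 had a median of 15.9 CPM in TTDV, against 0.549 CPM in F39. Its ranges of 2.95 to 47.7 CPM in TTDV and 0 to 6.80 CPM in F39 overlapped.

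The genes of this group with the most counts in TTDV (highest mean CPM, not per length) were expressed in both cultivars. MELO3C006866.2 had 164, 239 and 359.8 CPM in TTDV fruit at 20-25 d, 225, 294 and 128 CPM at 30-35 d, 67.8, 32.9 and 92.1 CPM at 40 d, and 56.9, 82.7 and 66.1 CPM at 45 d. In F39 fruit it had 57.4, 61.4 and 70.1 CPM, 70.2, 10.1 and 21.0 CPM, 6.04, 10.8 and 10.5 CPM, and 15.6, 11.8 and 12.7 CPM at these stages. The cultivars did not overlap within any stage, and both were lower at the last 2 stages, so that early F39 fruit and late TTDV fruit had similar levels. MELO3C002360.2 had a median of 102 CPM and a range of 11.2 to 350.2 CPM in TTDV, against 10.7 CPM and 0.615 to 108 CPM in F39. MELO3C020915.2 had a median of 48.8 CPM in TTDV, against 7.95 CPM in F39. MELO3C026378.2 had the narrowest difference of the 4 at 20-25 d, 1.54, with 16.3, 567 and 27.9 CPM in TTDV, against 73.3, 19.8 and 116 CPM in F39. At that stage its TTDV mean rested on replicate 2, and the other TTDV libraries lay within or below the F39 range.

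Among the genes lower in TTDV, MELO3C026575.2 had the clearest difference. It had 3.29, 2.32 and 1.95 CPM in TTDV fruit at 20-25 d, 0, 0 and 0.565 CPM at 30-35 d, 0.438, 0.920 and 0 CPM at 40 d, and no count at 45 d. In F39 fruit it had 46.9, 34 and 41.4 CPM at 20-25 d, 34, 28.6 and 73.2 CPM at 30-35 d, 53.2, 3.54 and 36.1 CPM at 40 d, and 22.8, 26.9 and 28.2 CPM at 45 d. Every TTDV library lay below every F39 library, and the nearest F39 library was replicate 2 at 40 d. The difference was -3.77 at 20-25 d and -6.06 at 30-35 d, its extremes.

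MELO3C035133.2 was at the counting limit in TTDV fruit except in 1 library. It had 24.6, 0 and 0 CPM in TTDV at 20-25 d, 0, 0.196 and 0.113 CPM at 30-35 d, no count at 40 d, and 0.140, 0 and 0 CPM at 45 d. In F39 it had 52.4, 33.5 and 89.2 CPM at 20-25 d, 56.4, 10.1 and 17.2 CPM at 30-35 d, 6.98, 3.85 and 7.68 CPM at 40 d, and 13, 4.15 and 14.1 CPM at 45 d. Replicate 1 of TTDV at 20-25 d held 343 of the 348 TTDV counts. Its level there was below the 3 F39 libraries of that stage and within the range of the later F39 libraries.

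MELO3C007711.2 was low but present in TTDV. It had 0, 4.45 and 0.0846 CPM in TTDV fruit at 20-25 d, 4.78, 2.03 and 3.95 CPM at 30-35 d, 0.547, 3.29 and 0.911 CPM at 40 d, and 1.26, 0 and 0.883 CPM at 45 d. In F39 it had 19.6, 11.4 and 26.2 CPM, 30.1, 10.8 and 20.5 CPM, 20.3, 1.23 and 12.4 CPM, and 9.87, 7.63 and 12.2 CPM. The cultivars overlapped at 40 d only, through replicate 2 of F39.

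MELO3C016167.2 had the highest mean CPM in F39 of the 56 genes. It had 155, 10.3 and 4.15 CPM in TTDV fruit at 20-25 d, 19.3, 24.8 and 5.42 CPM at 30-35 d, 3.72, 0.526 and 5.96 CPM at 40 d, and 6.29, 22.9 and 24.7 CPM at 45 d. In F39 it had 191, 288 and 295 CPM at 20-25 d, 686, 3399.7 and 1473 CPM at 30-35 d, 2071, 2448 and 1618 CPM at 40 d, and 2899, 2763 and 2994 CPM at 45 d. No TTDV library reached the F39 level, and the highest TTDV library was again replicate 1 at 20-25 d. The difference was -9.03 at 40 d and -2.18 at 20-25 d, where it was -5.07 without replicate 1 of TTDV.

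The other genes of this direction with high F39 levels varied more between libraries. MELO3C005054.2 ranged from 12.6 to 76.6 CPM in TTDV, against 30.1 to 1125 CPM in F39, where replicate 2 at 40 d was the highest. MELO3C006254.2 had a median of 1.07 CPM in TTDV, against 17.1 CPM in F39, where replicate 2 at 40 d again was the highest at 1612 CPM. MELO3C005859.2 had a median of 1.76 CPM in TTDV, against 66.2 CPM in F39, with F39 libraries between 1.28 and 496 CPM. In the first 2 of these genes that single library stood well above the other 11 F39 libraries. MELO3C034386.2 ranged from 0 to 3.44 CPM in TTDV and from 1.84 to 34.7 CPM in F39. MELO3C029124.2 had no count in 6 TTDV libraries and at most 8.02 CPM, against 4.46 to 15.8 CPM in F39. MELO3C007799.2 had at most 3.06 CPM in TTDV, against 1.49 to 27.3 CPM in F39.

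**Figure D4:**
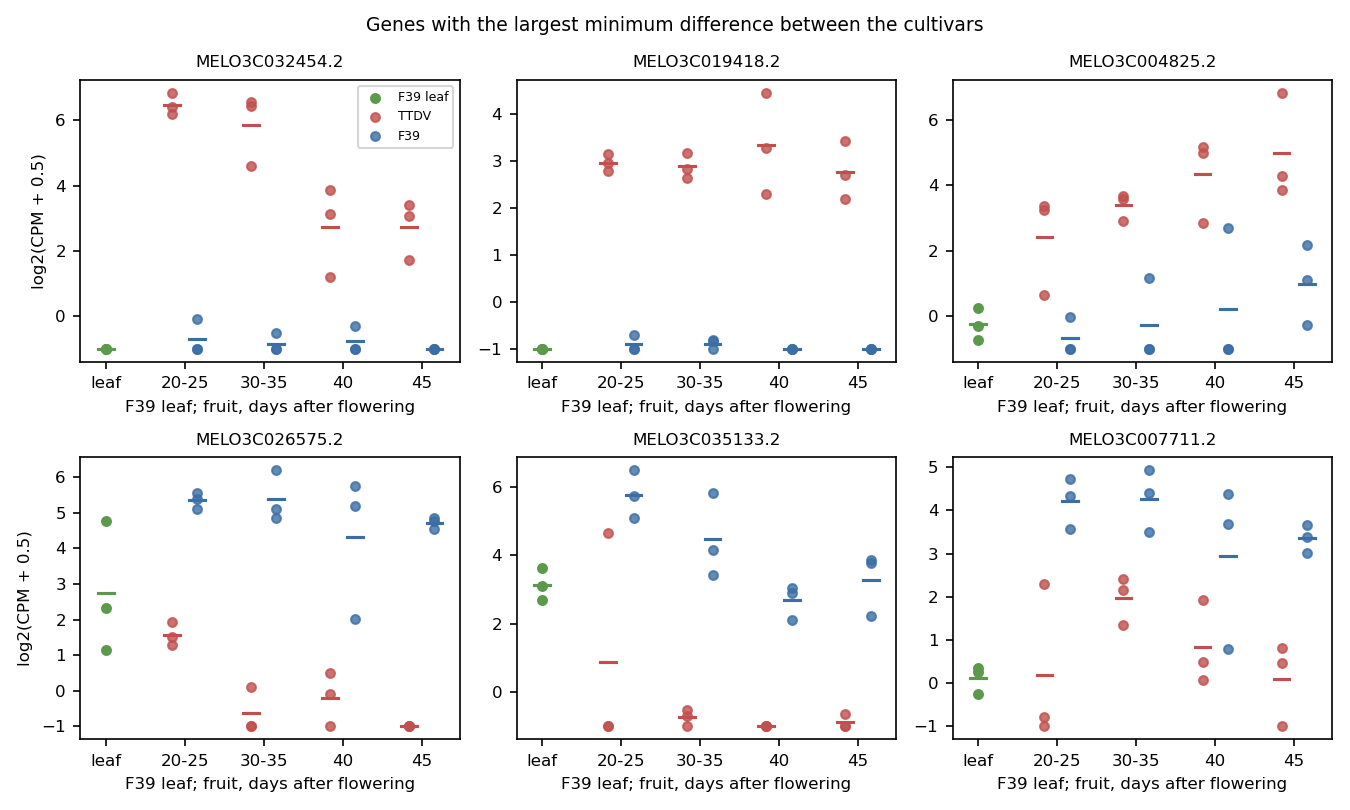
Level as log2(CPM + 0.5) against tissue and stage for the 3 genes with the largest smallest difference in each direction (points: libraries, short lines: means of 3; F39 leaf, TTDV fruit and F39 fruit by colour). In MELO3C035133.2 a single TTDV point, at 24.6 CPM at 20-25 d, stands apart from the other TTDV points.

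The differences at 20-25 and 40 d were also computed without the library of that stage that stood apart. Without replicate 1 of TTDV at 20-25 d, the difference moved by over 1.5 times in 8 of the 20 genes lower in TTDV and in none of the 36, and in all 8 it was larger in size. That of MELO3C035133.2 was -6.88 without it and -2.76 with it, and that of MELO3C029124.2 was -4.90 and -2.24. Without replicate 2 of F39 at 40 d, it moved by over 1.5 times in 10 of the 36 genes, all of them larger, and in 4 of the 20 genes. These 4 had been high in that library, and they lost most of the difference or all of it. It was -0.53 for MELO3C005054.2, -0.94 for MELO3C006254.2, -0.18 for MELO3C034903.2 and 0.53 for MELO3C007961.2, against -3.16, -5.90, -2.19 and -2.41 with the library. The place of these 4 genes among the 20 thus rested on 1 library at 40 d. No other library was taken out in this comparison, and means at other stages could rest on 1 library as well. MELO3C007961.2 had 526, 1.69 and 0.338 CPM in F39 at 30-35 d, against 0.649, 0 and 1.92 CPM in TTDV. MELO3C033195.2 had 0, 0.392 and 88.7 CPM in TTDV at 30-35 d, against 1.55, 0.203 and 2.50 CPM in F39.

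The same libraries often held the extreme level of their cultivar. Replicate 1 of TTDV at 20-25 d held the highest TTDV level in 9 of the 20 genes lower in TTDV, and the other TTDV libraries held it in 0 to 3. Replicate 2 of F39 at 40 d held the highest F39 level in 8 of the 36 genes higher in TTDV. Another F39 library, replicate 3 at 20-25 d, held it in 9. The values of the 2 libraries that stood apart are given as measured, and their part in the differences was not tested.

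The remaining genes lay nearer the threshold. The smallest difference had a median of 1.94 over the 36 genes and 1.99 in size over the 20. Just inside were MELO3C028852.2 at 1.505 and MELO3C033195.2 at 1.54, and in the other direction MELO3C020675.2 at -1.52 and MELO3C021216.2 at -1.53. Just outside were MELO3C033070.2 and MELO3C030252.2, both at 1.42, and MELO3C013885.2 at -1.46 and MELO3C001939.2 at -1.41. MELO3C033070.2 averaged 2.23 CPM in TTDV, against 0.0256 CPM in F39, and MELO3C001939.2 averaged 9.25 CPM in TTDV, against 48.9 CPM in F39.

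A single pair of the 56 genes had ID numbers within 2 of each other, and its members went in opposite directions. MELO3C034833.2 had 1.97 to 14.8 CPM in the TTDV fruit libraries, against no count in 11 of 12 F39 libraries and 3.54 CPM in replicate 2 at 40 d. MELO3C034831.2 had no count in 8 of 12 TTDV libraries and at most 0.716 CPM, against up to 12 CPM in F39. The highest F39 levels of MELO3C034831.2 were the 12, 7.63 and 11.6 CPM at 45 d, and 2 F39 libraries had no count. The sources used here do not give the positions of these genes.

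Change within TTDV between the first and the third stage was tested next, because the choice of genes compared cultivars and not stages. The test still uses libraries that entered the choice. In edgeR (quasi-likelihood F-test, Benjamini-Hochberg adjustment over 15130 genes) 14 of the 56 differed at 40 d from 20-25 d in TTDV fruit, which is 25% against 35.1% of all genes tested. All 56 passed the filter on low counts. Of the 36 genes higher in TTDV, 1 rose and 7 fell, against 18.1% and 17% of all genes. The median log2 fold change was -0.68 for the 36 and 0 for all genes.

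All 6 calls among the 20 genes lower in TTDV were decreases, and all 6 rested on replicate 1 at 20-25 d. These genes were MELO3C035133.2, MELO3C034386.2, MELO3C029124.2, MELO3C016167.2, MELO3C013365.2 and MELO3C035763.2. Without that library none of the 6 passed the threshold, and 1 gene, MELO3C007799.2, rose. The share of all genes called without it is not given here. The median log2 fold change of the 20 was -2.30, or -1.79 with genes that had no count in 1 group set at the bound that 3 counts give. MELO3C016167.2 averaged 3.40 ± 2.73 CPM at 40 d and 56.5 ± 85.5 CPM at 20-25 d (SD, n = 3 each). The SD at 20-25 d exceeded the mean.

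In F39, 13 of the 56 genes differed between 40 d and 20-25 d in edgeR after Benjamini-Hochberg adjustment, which is 23.2% against 26.1% of all genes. Of the 36 genes higher in TTDV, 5 rose and 6 fell in F39, and of the 20 lower in TTDV, 2 rose. Among all genes tested 11.2% rose and 15.0% fell. Without replicate 2 of F39 at 40 d, the 36 genes gave 1 rise and 8 falls, and the 20 gave none. The shares of all genes above are from the fit with all libraries, and those without this library are not given here. The rises lost were those of MELO3C027442.2, MELO3C031042.2, MELO3C024745.2 and MELO3C034833.2 in the first list, and MELO3C016167.2 and MELO3C006254.2 in the second. Whether the stage changes differ between TTDV and F39 was not tested.

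A group of 5 genes higher in TTDV fell between these stages in both cultivars, namely MELO3C002360.2, MELO3C006866.2, MELO3C020915.2, MELO3C026378.2 and MELO3C026843.2. The sixth gene called in both, MELO3C024745.2, rose in both. The share of all genes called in the same direction in both cultivars was not computed, so these counts have no background beside them. MELO3C020915.2 averaged 18.9 ± 13.4 CPM at 40 d and 275 ± 122 CPM at 20-25 d in TTDV (SD, n = 3 each). Its log2 fold change was -3.90 (SE 0.67, edgeR with Benjamini-Hochberg adjusted p = 3.17e-04). In F39 it averaged 5.60 ± 1.24 CPM at 40 d and 83.7 ± 21.1 CPM at 20-25 d (SD, n = 3 each). The F39 log2 fold change was -3.62 (SE 0.67, edgeR with Benjamini-Hochberg adjusted p = 0.00106). Every library at 40 d lay below every library at 20-25 d in both cultivars. The TTDV mean was the higher one at each stage, as the choice required. At 40 d replicate 1 of TTDV, at 3.61 CPM, lay below the F39 libraries, at 4.30, 6.77 and 5.73 CPM.

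MELO3C026843.2 averaged 2.23 ± 1.97 CPM at 40 d and 46.3 ± 11.3 CPM at 20-25 d in TTDV (SD, n = 3 each; log2 fold change -4.37, edgeR with Benjamini-Hochberg adjusted p = 0.00302). In F39 it averaged 0.349 ± 0.514 CPM and 12.9 ± 4.77 CPM at these stages (SD, n = 3 each; log2 fold change -4.97, edgeR with Benjamini-Hochberg adjusted p = 0.00401). Every library at 40 d lay below every library at 20-25 d in both cultivars. MELO3C026378.2 averaged 5.16 ± 3.61 CPM at 40 d and 204 ± 315 CPM at 20-25 d in TTDV (SD, n = 3 each). Its log2 fold change was -5.22 (edgeR with Benjamini-Hochberg adjusted p = 0.00325). Without replicate 2 of TTDV at 20-25 d this became -2.21 (edgeR with Benjamini-Hochberg adjusted p = 0.0849), no longer past the threshold. In F39 its log2 fold change was -7.42 (SE 1.49, edgeR with Benjamini-Hochberg adjusted p = 0.00177).

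MELO3C024745.2 rose in TTDV, with 56.5 ± 18.2 CPM at 40 d and 3.43 ± 3.58 CPM at 20-25 d (SD, n = 3 each; log2 fold change 4.05, edgeR with Benjamini-Hochberg adjusted p = 0.00463). In F39 it averaged 5.32 ± 8.45 CPM at 40 d and 0.526 ± 0.439 CPM at 20-25 d (SD, n = 3 each), and the F39 call was lost without replicate 2 at 40 d. MELO3C032454.2, which was at the counting limit in F39, fell in TTDV to 8.07 ± 6.13 CPM at 40 d, against 90.2 ± 21.3 CPM at 20-25 d (SD, n = 3 each; log2 fold change -3.52, edgeR with Benjamini-Hochberg adjusted p = 0.0101).

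Of the genes lower in TTDV, MELO3C016167.2 averaged 2046 ± 416 CPM at 40 d and 258 ± 58.0 CPM at 20-25 d in F39 (SD, n = 3 each). Its log2 fold change was 3.25 (SE 1.05, edgeR with Benjamini-Hochberg adjusted p = 0.0266). All 3 libraries at 40 d lay above all 3 at 20-25 d, yet 4 of the 6 fits that left out 1 library lost the call, with log2 fold changes of 3.03 to 3.45 over the 6. MELO3C006254.2 averaged 549 ± 921 CPM at 40 d and 0.991 ± 1.62 CPM at 20-25 d in F39 (SD, n = 3 each; log2 fold change 9.54, edgeR with Benjamini-Hochberg adjusted p = 0.0179). Without replicate 2 at 40 d its log2 fold change was 4.39 (edgeR with Benjamini-Hochberg adjusted p = 0.165). The call was lost in 3 of the 6 fits that left out 1 library, with log2 fold changes of 4.39 to 13.6 over the 6.

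Between 40 and 45 d few of the 56 genes changed. In TTDV none passed the threshold by edgeR with Benjamini-Hochberg adjustment, against 1.86% of all genes (0.648% higher and 1.21% lower at 45 d), while 6 had an unadjusted p under 0.05 and DESeq2 called 2. In F39, 3 passed, or 5.36% against 7.45% of all genes, with 1 rise and 2 falls among the genes higher in TTDV, against 3.2% and 4.25% of all genes. MELO3C028852.2 averaged 1.44 ± 0.979 CPM at 45 d in F39 (SD, n = 3) and had no count at 40 d, thus at least 11.1-fold higher at 45 d (floor of 3 counts over the group; edgeR with Benjamini-Hochberg adjusted p = 0.0331). MELO3C020915.2 averaged 1.25 ± 0.51 CPM at 45 d and 5.60 ± 1.24 CPM at 40 d in F39 (SD, n = 3 each; log2 fold change -2.41, edgeR with Benjamini-Hochberg adjusted p = 0.0378). Of the 6 fits that left out 1 library, 5 lost the call of MELO3C028852.2 and all 6 lost that of MELO3C020915.2. Their log2 fold changes over these fits were 6.42 to 7.31 for MELO3C028852.2, which depend on the prior count and are no bound, and -2.67 to -2.21 for MELO3C020915.2. MELO3C024745.2 also fell, and without replicate 2 of F39 at 40 d none of the 3 was called. The shares of all genes called in fits without 1 library are not given here.

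Leaf libraries did not enter the choice, while the fruit means set beside them here did. Most genes higher in TTDV fruit had a low level in F39 leaf. In 23 of the 36 the leaf mean was under 1 CPM, and in 9 there was no count in any leaf library. The leaf mean lay below both fruit means in 25 of the 36, between them in 6 and above both in 5. Among the genes lower in TTDV fruit, the leaf mean lay between the TTDV and F39 fruit means in 14 of 20. The leaf was below both in 5 and above both in 1, MELO3C004313.2, at 3.83 CPM in leaf, against 2.64 CPM in F39 fruit and 0.129 CPM in TTDV fruit. The median leaf mean was 0.404 CPM for the 36 genes and 3.97 CPM for the 20. Shares of all genes with a leaf mean under 1 CPM, with no leaf count or with these positions were not computed. The counts thus have no background beside them and describe the 36 and the 20 genes only.

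**Figure D5:**
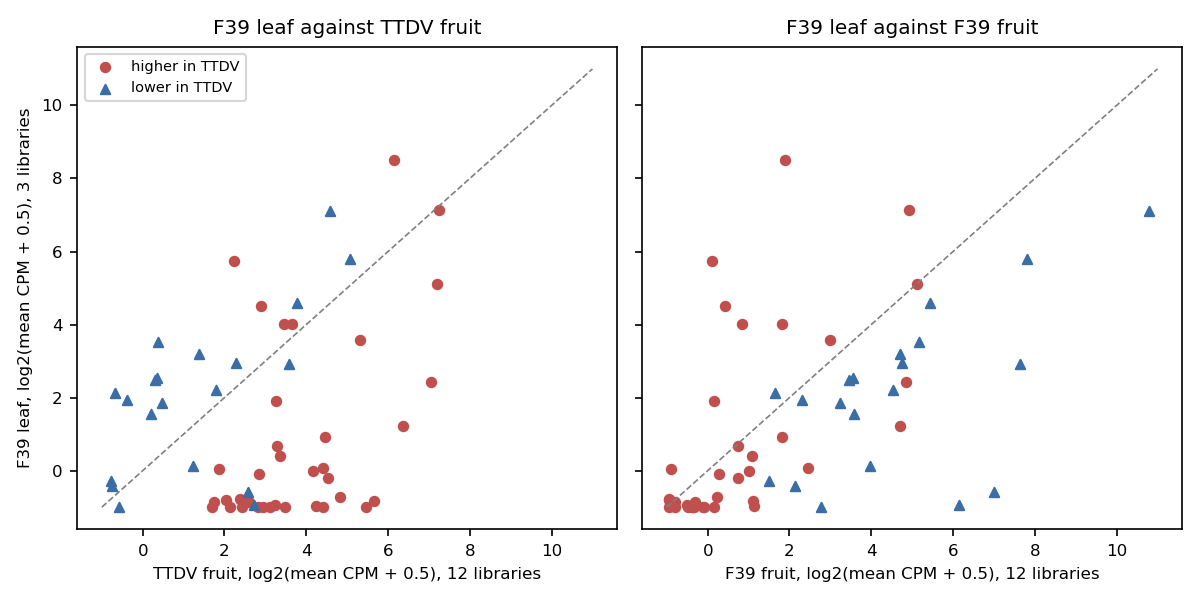
Mean level in F39 leaf (3 libraries, vertical) against the mean in TTDV fruit (left panel) and in F39 fruit (right panel, 12 libraries each), as log2(mean CPM + 0.5), with 1 point per gene, the list by colour and shape, and a dashed line of equal level. In the left panel 5 of the 36 genes higher in TTDV lie above the line and 15 of the 20 lower in TTDV do.

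F39 leaf was tested against the mean of the 4 F39 fruit stages, averaged as log levels. These fruit libraries entered the choice, as the lower side for the 36 genes and the higher side for the 20. The direction of this contrast is thus not independent of the choice. After Benjamini-Hochberg adjustment in edgeR, 17 of the 56 genes differed, which is 30.4% against 55.7% of all genes tested. Of the 36 genes higher in TTDV, 11 were higher in leaf, or 30.6% against 30.5% of all genes, and 2 were lower, or 5.56% against 25.2%. Of the 20 lower in TTDV, none was higher in leaf and 4 were lower, or 20%. Without replicate 2 of F39 at 40 d these counts were 12 and 1 of the 36 and 0 and 3 of the 20, and the lower calls of MELO3C033195.2 and MELO3C016167.2 were lost. With median-of-ratios scaling 12 of the 56 were higher and 4 lower in leaf, beside 11 and 6. In the first of these fits, the share higher in leaf among the 36 thus equalled the background. The shares of all genes in the other fits are not given here. Every leaf library lay above every F39 fruit library in 7 of the 36, against 8.24% of all genes, and in none of the 20. It lay below in 1 of the 36 and 6 of the 20, against 17.6% of all genes. Both shares are over the 25197 genes the choice could take, unlike the edgeR shares, which are over 15130. The 25197 include genes with no count, which cannot show either pattern, while all 56 passed the filter. The counts of genes with these patterns also use F39 fruit levels that entered the choice, so they describe the 56 genes only.

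MELO3C024483.2 had the highest leaf level of the genes higher in TTDV, 312, 448 and 327 CPM. In F39 fruit it averaged 3.19 ± 5.10 CPM (SD, n = 12), with a highest library of 17 CPM. In TTDV fruit its 3 libraries at 45 d had 169, 307 and 160 CPM, and the other stages lay between 5.08 and 61.1 CPM. The leaf of F39 thus held this gene at a level above that of any fruit library, while F39 fruit was low. The log2 fold change of leaf over F39 fruit was 8.81 (SE 0.78, edgeR with Benjamini-Hochberg adjusted p = 5.57e-09).

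MELO3C022941.2 averaged 53.3 ± 8.91 CPM in leaf (SD, n = 3) and 0.576 ± 0.729 CPM in F39 fruit (SD, n = 12). Its log2 fold change was 8.07 (SE 0.76, edgeR with Benjamini-Hochberg adjusted p = 1.43e-08). MELO3C022941.2 had 1 count in all in F39 fruit at 45 d, so this value can depend on the prior count. It ran from 6.45 to 8.38 over the other settings. MELO3C004078.2 averaged 22.4 ± 7.67 CPM in leaf (SD, n = 3) and 0.834 ± 0.968 CPM in F39 fruit (SD, n = 12). The leaf over fruit log2 fold change was 7.16 (SE 0.61, edgeR with Benjamini-Hochberg adjusted p = 6.50e-09). As MELO3C004078.2 had no count in F39 fruit at 45 d, this value depends on the prior count. It ran from 4.74 to 7.40 over the other settings. Both genes were also higher in F39 leaf than in any TTDV fruit library, where they reached at most 10.2 and 11.7 CPM. MELO3C006866.2 averaged 141 ± 33.5 CPM in leaf (SD, n = 3), near its TTDV fruit mean of 151 CPM. Its F39 fruit mean was 29.8 ± 26.3 CPM (SD, n = 12).

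Among the genes lower in TTDV, MELO3C016167.2, MELO3C005054.2 and MELO3C021216.2 had the highest leaf levels, with means of 139, 54.8 and 23.5 CPM. All 3 lay between the TTDV and F39 fruit means. MELO3C021216.2 averaged 13.1 CPM in TTDV fruit and 42.9 CPM in F39 fruit. MELO3C007961.2, MELO3C005859.2 and MELO3C007711.2 were low in leaf. MELO3C005859.2 averaged 0.166 ± 0.096 CPM in leaf (SD, n = 3) and 128 ± 157 CPM in F39 fruit (SD, n = 12). Its log2 fold change was -7.87 (SE 1.95, edgeR with Benjamini-Hochberg adjusted p = 0.00168). MELO3C007961.2 had 1 count over the 3 leaf libraries, against an average of 70.6 ± 152 CPM in F39 fruit (SD, n = 12; edgeR with Benjamini-Hochberg adjusted p = 0.0078). MELO3C007711.2 averaged 0.601 ± 0.235 CPM in leaf (SD, n = 3) and 15.2 ± 8.25 CPM in F39 fruit (SD, n = 12; log2 fold change -3.60, edgeR with Benjamini-Hochberg adjusted p = 0.00843). In these 3 genes every leaf library lay below every F39 fruit library.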

How the data were processed

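RNA was extracted in Trizol from powdered frozen tissue and treated with DNase, and libraries were made with a NuGen mRNA kit, as the labels' protocols state. Gene counts were deposited by the authors as whole numbers, not normalized, with a file for each library. The submitters' processing notes list STAR 2.5.4b and edgeR 3.12.1 without a role. How reads were counted (program, strand, multiple matches) and on which build and annotation is not given in the sources used here. Genes that overlap or are nearly identical have uncertain values for that reason. How cultivar differences from the unnamed build bear on the counts was not tested.

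CPM was computed with the column total as denominator, and the choice of genes used a pseudocount of 0.5 CPM. The 56 genes, the lists and the checks were chosen with earlier results of these data known. Counts were fitted in edgeR 4.0.16 (R 4.3.3; limma 3.58.1) with TMM scaling, filterByExpr (15130 of 25200 genes kept; 3500 had no count) and a robust quasi-likelihood fit over all 27 libraries with 1 mean per group. Contrasts (5) were tested at an adjusted p of 0.05. Depth, at 6025615 to 28731038 counts, limits low genes. No 2 files were identical (0 pairs). Alternatives were DESeq2 1.42.0, other scaling, filters and pseudocounts, the files as attached, and leaving out each library. Named genes were, per direction, the 8 with the largest smallest difference, the 4 most abundant, up to 3 non-overlapping called genes with the largest change per contrast, those nearest the threshold, the 3 highest in leaf, and those with ID numbers within 2. The reference gene table (USDA_Cmelo_AY_1.0) matched 0 of the 25200 IDs. Tables and figures used Python 3.11.15, pandas 2.3.3, numpy 2.4.6 and matplotlib 3.10.9.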

Additional observations from a re-analysis of the deposited data

How the results depend on the processing

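The number of genes chosen depends on the settings of the choice. With a pseudocount of 0.1 CPM there were 68 higher and 34 lower in TTDV, with 1 CPM 24 and 13, and with 5 CPM 4 and 3. A threshold of 1 gave 78 and 51, and a threshold of 2 gave 16 and 10. Medians of the 3 libraries gave 45 and 24, of which 25 and 13 were among the 56. Leaving out 1 library gave 27 to 45 higher and 16 to 26 lower. With the files as GEO attaches them, 3 were higher and 28 lower, of which 0 and 1 were among the 56. The share of the 6 disputed libraries' placements that followed the library number was 79.5% and 86.7% with gaps of 0.5 and 2 log2 units.

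As attached, 38 of the 56 genes were called in TTDV at 40 against 20-25 d, 33 in F39 and 15 in TTDV at 45 against 40 d, beside 14, 3 and 0 by library number. Among all genes there were 5450, 5855 and 45 calls as attached, and 5307, 1127 and 281 by library number. By library number, all 3 contrasts then set TTDV against F39 libraries that entered the choice of the genes, so these counts do not measure stability. The log2 fold change of MELO3C024745.2 in TTDV at 40 against 20-25 d was then -3.25, and that of MELO3C020915.2 in F39 at 45 against 40 d was 5.50, both reversed, because other libraries enter the contrast. DESeq2 called 8 in F39 and 2 in TTDV at 45 against 40 d, and 2081 and 1090 of all genes. Fitting only the groups compared gave 8 in TTDV at 40 against 20-25 d. No filter gave 1 in F39 at 45 against 40 d, and the stricter filter gave 11 in leaf against fruit, where 34 of the 56 were tested. For the other results, the cause was not tested. Leaving out 1 library gave 9 to 14 calls in TTDV and 6 to 13 in F39 at 40 against 20-25 d. It gave 0 to 4 in F39 at 45 against 40 d, 12 to 18 in leaf against fruit, and 0 in TTDV at 45 against 40 d in all 6 fits. For these fits, and for those with other filters or only the groups compared, calls among all genes are not given beside the counts. These counts thus describe the 56 genes only. Median-of-ratios scaling put the median of all genes' log2 fold changes at 0.19 in leaf against fruit, beside -0.07 with TMM, and at -0.12 in TTDV at 40 against 20-25 d, beside 0. No paired analysis was possible because replicate numbers were given in order and the labels carry none.

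Genes near the counting limit in 1 cultivar are sensitive to the pseudocount, and with 3 libraries a group 1 library can carry a mean. No difference between the cultivars was tested.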

Other observations

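MELO3C034903.2, lower in TTDV and singled out after its values were seen, was detected in F39 mainly in replicate 2 of each stage. These libraries had 38.0, 4.53, 5.23 and 27.4 CPM in order of stage. The other 8 F39 fruit libraries had at most 0.134 CPM, while 10 of the 12 TTDV libraries and all 3 leaf libraries had no count. MELO3C026792.2, higher in TTDV, was also highest in replicate 2 at each F39 stage, with 1.00, 5.34, 3.38 and 6.80 CPM. The labels do not say whether libraries with the same number share a plant. The tests between stages treated all libraries as independent.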
